A study of Mus musculus with 8 samples.

Results

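The 9 genes described here make, convert, carry or break down retinoic acid, the active form of vitamin A, or its precursors retinol and retinal. They are Rdh8, Rdh10, Crabp1, Crabp2, Rbp4, Aldh1a1, Aldh1a2, Aldh1a3 and Cyp26b1. They were selected on their names and roles with the difference between the treated and the control samples already known, so that difference is described for them and is not tested. All 9 were found by symbol among the 18540 genes of the count table, and all 9 were among the 15147 genes that passed the filter on low counts. Rdh8 passed this filter through its control samples only.

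Wound skin of mice was sequenced from 4 control samples and 4 samples of the Z1C2Z group after 15 days of treatment. Z1C2Z is the ZCZ composite (zinc peroxide and ceria particles in a ZIF-8 metal organic framework) with the higher share of ceria. In the wound experiments of the study 100 μg/kg was injected around the wound every 7 days, and the control group received PBS. The sequencing methods do not say what the control mice received or when they were sampled. The methods describe 6-week-old C57BL mice and 10-week-old db/db mice, a diabetic strain without a working leptin receptor, each with 2 full-thickness wounds of 10 mm, and neither they nor the labels say which of these strains gave the sequenced skin. No other allele or agent is named for either group. The labels mark the treated samples only as the experimental ones and the sequencing methods name ZCZ without a variant, so that they received Z1C2Z is inferred from sample names printed in the study. Samples are called by the numbers in their labels, which are 1, 2, 3 and 5 for the control samples and 1, 2, 4 and 5 for the Z1C2Z samples (control-1, Z1C2Z-4 and so on), and values per sample are given in that order. Since it is not stated which wounds shared a mouse, p-values measure the spread between these samples only.

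Cells take up retinol that the blood carries bound to Rbp4, store it as esters, and oxidise it first to retinal and then to retinoic acid, which enters the nucleus and binds the retinoic acid receptors. Retinol dehydrogenases such as Rdh10 carry out the first step, the Aldh1a enzymes the second, and the Cyp26 enzymes limit the signal by breaking retinoic acid down. In skin, retinoic acid is known for its effects on the growth and cornification of keratinocytes, on sebaceous glands and on the hair cycle.

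Promoter sequences are shown for 5 of the genes, because the retinoic acid receptors act through short repeats in DNA and several of these genes moved together between samples. RefSeq records on build GRCm38.p6, each reaching from 250 bases before to 50 bases after the annotated start, were held for 6 of the 9 genes in 8 windows, and not for Rdh10, Crabp2 or Aldh1a3. Capitals mark a retinoic acid receptor half-site, searched on both strands in the usual form AGGTCA and in the variants with another purine first (GGGTCA), with T at the third base (AGTTCA) or with both (GGTTCA). The Rdh8 window lies at chr9:20818244-20818543 (+), the Crabp1 window at chr9:54764498-54764797 (+), the Cyp26b1 window at chr6:84593761-84594060 (-), the upstream Rbp4 window at chr19:38125272-38125571 (-) and the second Aldh1a1 window at chr19:20601718-20602017 (+).
Rdh8: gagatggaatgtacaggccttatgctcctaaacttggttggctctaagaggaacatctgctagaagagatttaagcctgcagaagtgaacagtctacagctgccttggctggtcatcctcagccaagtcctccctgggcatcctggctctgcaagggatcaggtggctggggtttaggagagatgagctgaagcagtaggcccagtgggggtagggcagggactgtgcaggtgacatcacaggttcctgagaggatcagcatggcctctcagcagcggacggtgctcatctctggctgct
Crabp1: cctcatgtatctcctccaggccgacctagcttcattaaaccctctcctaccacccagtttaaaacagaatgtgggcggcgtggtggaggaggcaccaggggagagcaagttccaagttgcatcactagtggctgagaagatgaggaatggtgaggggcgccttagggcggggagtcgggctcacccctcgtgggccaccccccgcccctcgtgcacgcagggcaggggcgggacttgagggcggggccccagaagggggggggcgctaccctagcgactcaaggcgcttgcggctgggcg
Cyp26b1: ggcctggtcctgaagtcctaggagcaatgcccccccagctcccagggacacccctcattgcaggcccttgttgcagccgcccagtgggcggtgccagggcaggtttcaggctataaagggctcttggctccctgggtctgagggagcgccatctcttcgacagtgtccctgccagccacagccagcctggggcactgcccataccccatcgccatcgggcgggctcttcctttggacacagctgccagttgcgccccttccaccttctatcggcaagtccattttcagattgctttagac
Rbp4: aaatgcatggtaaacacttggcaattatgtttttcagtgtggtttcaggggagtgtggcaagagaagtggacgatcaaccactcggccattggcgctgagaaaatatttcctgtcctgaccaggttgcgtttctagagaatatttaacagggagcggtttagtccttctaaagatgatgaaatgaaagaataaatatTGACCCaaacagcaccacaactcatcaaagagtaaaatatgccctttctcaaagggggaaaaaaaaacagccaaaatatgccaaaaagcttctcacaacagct
Aldh1a1: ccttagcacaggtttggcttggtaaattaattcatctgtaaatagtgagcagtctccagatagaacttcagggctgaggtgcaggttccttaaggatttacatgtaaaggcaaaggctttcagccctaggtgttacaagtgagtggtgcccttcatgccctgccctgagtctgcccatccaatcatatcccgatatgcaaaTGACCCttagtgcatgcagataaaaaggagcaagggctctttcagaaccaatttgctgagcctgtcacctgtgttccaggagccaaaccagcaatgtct

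A half-site was found in 2 of these windows, where the capitals TGACCC read as GGGTCA on the other strand, at -49 from the start of Aldh1a1 and at -53 from the upstream start of Rbp4. Half-sites were common, being present in 43.7% of the 32851 promoter windows of this length in the RefSeq table. A pair of half-sites in direct repeat with 1, 2 or 5 bases between them, the arrangement to which the receptors bind as dimers, was found in none of the 8 windows and in 0.222%, 0.268% and 0.0974% of all windows. The AP-1 motif TGANTCA, bound by Fos and Jun proteins, occurred in 7.81% of all windows. It was present at -57 in the other Aldh1a1 window and at -142 in the other Rbp4 window, and not in those of Rdh8, Crabp1, Cyp26b1 or Aldh1a2. Half-sites and AP-1 motifs share the letters TGA, so their counts are not independent. These matches describe letters in a window and not bound sites.

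Of the 9 genes, the 2 retinol dehydrogenases were lower in the Z1C2Z samples. The 3 retinoic acid synthesising enzymes were higher on average, and the binding proteins and the retinoic acid degrading enzyme were lower on average. Log2 fold changes of Z1C2Z against control were above 0 for 3 of the 9 genes and below 0 for 6, with a median of -0.40 against 0.01 over all 15147 genes. As a description only, 1 of the 9 (Aldh1a3) lay among the higher genes at an adjusted p under 0.05 in edgeR's quasi-likelihood fit, as did 4.28% of all tested genes. Among the lower genes lay 2 (Rdh8 and Rdh10), as did 3.85% of all genes, and Rdh8, which passed the filter through its control samples only, could differ in this direction alone. Both of these, and no higher gene, also passed a 2-fold change, as did 1.25% of all genes in the lower and 2.15% in the higher direction. The groups did not overlap for Rdh8 and Rdh10, both lower, while 8.82% of all genes were lower and 8.45% higher without overlap. Nothing is read from these counts, since the genes were chosen with this contrast known. In skin as a whole, fewer cells of a type and less RNA per cell cannot be told apart.

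**Figure D1:**
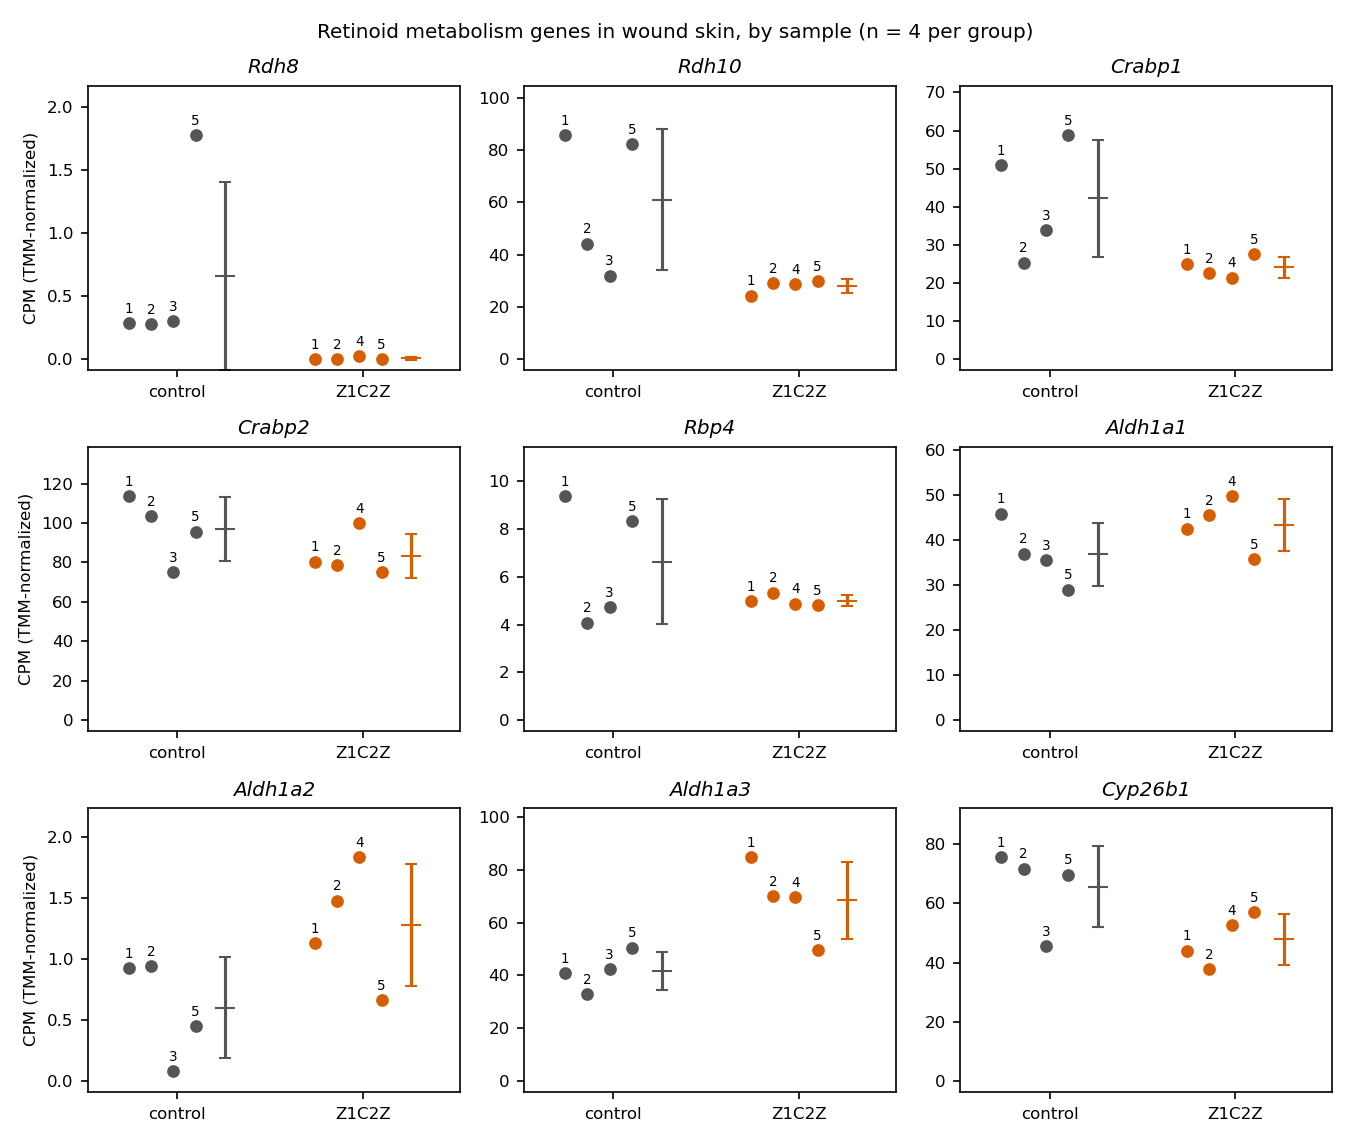
Expression of the 9 retinoid metabolism genes in each sample, as CPM (counts scaled to library size by TMM) on a linear axis that differs between panels. Points are samples with their label numbers, and the bar beside each group is the mean with its SD (n = 4). Rdh8 and Rdh10 are the only panels in which every Z1C2Z sample lies below every control sample, and control-1 and control-5 are the highest samples for Rdh10, Crabp1 and Rbp4.

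Rdh8 is a retinol dehydrogenase best known from photoreceptors, where it reduces the retinal released by light. Its counts were 8, 10, 11 and 63 in the control samples, and 0, 0, 1 and 0 in the Z1C2Z samples. Every control sample was above every Z1C2Z sample, but 63 of the 92 control counts came from control-5. In CPM, counts scaled to the size of each library, the control samples were at 0.284, 0.278, 0.303 and 1.77 and Z1C2Z-4 was at 0.0251. A count of 0 allows up to 3 counts in a library, or 0.0846 CPM in Z1C2Z-1, 0.0777 CPM in Z1C2Z-2 and 0.0832 CPM in Z1C2Z-5, all below the lowest control sample. Scaled to equal library size, the summed counts were 101 times higher in the control group, with an exact 95% interval of 17.8 to 4050 that covers counting error only. Without control-5 the ratio was 43.3 (7.17 to 1767). The fitted log2 fold change of -6.04 ± 1.17 (SE) depends on the prior count that edgeR adds.

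Rdh10 oxidises retinol to retinal, the step that commonly limits retinoic acid synthesis. Its levels were 85.7, 44.2, 32.0 and 82.4 CPM in the control samples, and 24.3, 29.0, 28.8 and 29.9 CPM in the Z1C2Z samples. The groups did not overlap, although control-3 stood only slightly above the highest Z1C2Z sample. The control samples spread widely (61.1 ± 27.0 CPM, SD, n = 4), with control-1 and control-5 near each other at the top, whereas the Z1C2Z samples lay close together (28.0 ± 2.51 CPM, SD, n = 4). The ratio of the means was 2.18 and the log2 fold change -1.12 ± 0.29 (SE). Leaving out control-1 gave -0.92 and leaving out control-5 gave -0.94.

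Crabp1 and Crabp2 bind retinoic acid inside the cell, Crabp2 handing it to the nuclear receptors and Crabp1 holding it in the cytoplasm. Crabp1 was at 50.8, 25.3, 33.8 and 58.8 CPM in the control samples, and at 25.0, 22.5, 21.4 and 27.5 CPM in the Z1C2Z samples. Control-2 lay within the Z1C2Z range, so the groups overlapped, and control-1 and control-5 were again the highest. Crabp1 averaged 42.2 ± 15.3 CPM in the control group and 24.1 ± 2.71 CPM in the Z1C2Z group (SD, n = 4). This log2 fold change of -0.81 ± 0.24 (SE) was -0.60 without control-5. Crabp2, at 97.0 ± 16.3 and 83.5 ± 11.1 CPM (SD, n = 4), had a log2 fold change of -0.22 ± 0.14 (SE). Its control samples ranged from 75.1 to 113.6 CPM and its Z1C2Z samples from 75.0 to 99.8 CPM, almost the same range. Within a sample, the counts of Crabp1 were 0.439 ± 0.152 of those of Crabp2 in the control group and 0.294 ± 0.0630 in the Z1C2Z group (SD, n = 4), with overlap between groups. These and the other ratios below were chosen after their values were seen.

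Rbp4, the plasma carrier of retinol that liver and fat secrete, was measured at 9.38, 4.08, 4.74 and 8.34 CPM in the control samples and at 4.99, 5.34, 4.87 and 4.82 CPM in the Z1C2Z samples. Control-1 and control-5 lay above all Z1C2Z samples, and control-2 and control-3 lay below them. The means of 6.63 ± 2.62 and 5.01 ± 0.232 CPM (SD, n = 4) gave a log2 fold change of -0.40 ± 0.27 (SE), which was -0.20 without control-1. Liver markers (Alb, Apoa2, Serpina1a and Ttr) summed to 12.2 CPM in control-1, against 1.29 to 3.15 CPM in the other control samples and 0.933 to 2.50 CPM in the Z1C2Z samples. Markers of dermal adipocytes summed to between 509 and 609 CPM in the control samples and between 377 and 740 CPM in the Z1C2Z samples, and 0 of 6 passed edgeR's test. The part of these cells in the Rbp4 values was not tested.

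The Aldh1a enzymes oxidise retinal to retinoic acid, a step that is not reversed in the cell. Aldh1a3 was at 40.8, 32.9, 42.3 and 50.5 CPM in the control samples, and at 84.7, 70.0, 69.5 and 49.4 CPM in the Z1C2Z samples. The Z1C2Z samples lay above every control sample, except Z1C2Z-5, which lay just below control-5. Aldh1a3 averaged 41.6 ± 7.20 CPM in the control group and 68.4 ± 14.5 CPM in the Z1C2Z group (SD, n = 4), and its log2 fold change was 0.72 ± 0.18 (SE).

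Aldh1a2, the main retinoic acid synthesising enzyme of the early embryo, was scarce here. Control samples held 26, 34, 3 and 16 counts of it, and Z1C2Z samples 40, 57, 73 and 24. Control-3 was far below the rest, and Z1C2Z-5 lay within the control range. Aldh1a2 averaged 0.600 ± 0.413 CPM in the control group and 1.28 ± 0.498 CPM in the Z1C2Z group (SD, n = 4). The log2 fold change of 1.10 ± 0.59 (SE) was larger than that of Aldh1a3 but less precise, and it was 0.73 without control-3.

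Aldh1a1, the third enzyme of this family, was the least different between groups. It ranged from 29.0 to 45.9 CPM in the control samples (36.9 ± 6.97 CPM, SD, n = 4) and from 35.8 to 49.8 CPM in the Z1C2Z samples (43.4 ± 5.86 CPM, SD, n = 4). The ranges overlapped for most samples, and the log2 fold change was 0.24 ± 0.15 (SE). Of the 2309 stretches of 50 bases in its transcript, 151 (6.54%) also occur in Aldh1a7, so reads from these could have been counted for either gene. The other 8 genes shared no such stretch with another gene. The counts of Aldh1a3 were 1.18 ± 0.402 times those of Aldh1a1 in the control group and 1.58 ± 0.285 times in the Z1C2Z group (SD, n = 4), with overlap.

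Cyp26b1 oxidises retinoic acid to inactive products and is itself induced by retinoic acid in many tissues. It was at 75.6, 71.8, 45.6 and 69.8 CPM in the control samples and at 44.0, 37.8, 52.7 and 57.0 CPM in the Z1C2Z samples. The control samples lay above every Z1C2Z sample, except control-3, which fell inside the Z1C2Z range. The means of 65.7 ± 13.6 and 47.9 ± 8.61 CPM (SD, n = 4) gave a log2 fold change of -0.46 ± 0.18 (SE). Its relatives Cyp26a1 and Cyp26c1 had at most 11 and 1 counts in a control sample and at most 2 and 1 counts in a Z1C2Z sample, too few for the test.

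Between the group means, the synthesising enzyme Aldh1a3 and the degrading enzyme Cyp26b1 differed in opposite directions. Single samples did not all follow this, as control-3 lay below the mean log2 CPM of the 8 samples for both genes. The ratio of their counts was 0.540, 0.459, 0.928 and 0.723 in the control samples, and 1.92, 1.85, 1.32 and 0.868 in the Z1C2Z samples. The Z1C2Z samples other than Z1C2Z-5 had more Aldh1a3 than Cyp26b1 counts and no control sample did, but Z1C2Z-5 lay below control-3. Rdh10 makes retinal and Dhrs3 turns retinal back into retinol, and the 2 enzymes bind each other in the cell. The counts of Rdh10 were between 0.891 and 2.53 times those of Dhrs3 in the control samples (1.66 ± 0.799, SD, n = 4), and between 0.458 and 0.685 times in the Z1C2Z samples (0.598 ± 0.101, SD, n = 4). This ratio did not overlap between groups. That follows from its parts, since Rdh10 was lower and Dhrs3 higher in the Z1C2Z group, each without overlap. The ratio therefore adds nothing to what the 2 genes show singly.

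Levels can be compared between genes per length, as CPM per kilobase of exon, using exon lengths of the GENCODE M21 annotation. In the control group Crabp2 was highest (104 ± 17.5, SD, n = 4), followed by Crabp1 (52.6 ± 19.1), Rdh10 (17.0 ± 7.53), Aldh1a1 (15.4 ± 2.91), Cyp26b1 (12.3 ± 2.54), Aldh1a3 (9.39 ± 1.62), Rbp4 (5.38 ± 2.12), Rdh8 (0.470 ± 0.529) and Aldh1a2 (0.265 ± 0.183). Neighbours from Rdh10 to Rbp4, and Rdh8 with Aldh1a2, had overlapping ranges, so their order is within the spread of the samples. In the Z1C2Z group the order per length was Crabp2 (89.7 ± 12.0), Crabp1 (30.0 ± 3.37), Aldh1a1 (18.1 ± 2.45), Aldh1a3 (15.4 ± 3.26), Cyp26b1 (8.94 ± 1.61), Rdh10 (7.81 ± 0.700), Rbp4 (4.06 ± 0.188), Aldh1a2 (0.564 ± 0.220) and Rdh8 (0.00447, from 1 count). Aldh1a1 with Aldh1a3, and Cyp26b1 with Rdh10, overlapped there. Rdh10 thus stood above Aldh1a3 in the control mean and below it in the Z1C2Z mean, and Aldh1a3 stood below Cyp26b1 in the former and above it, without overlap, in the latter.

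**Figure D2:**
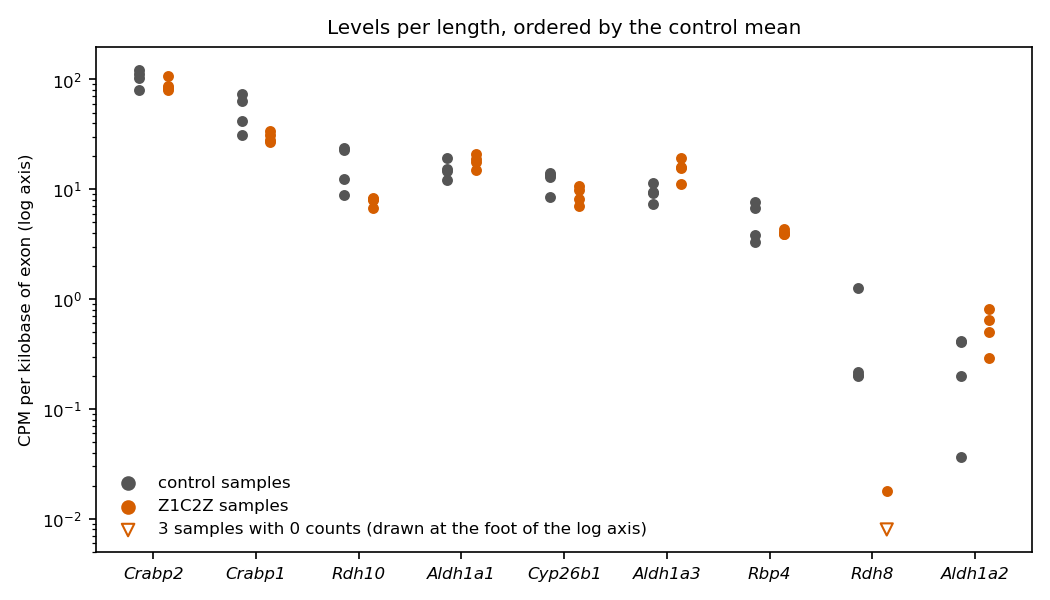
Level per length of the 9 genes in each sample, as CPM per kilobase of exon on a log axis, with genes ordered by their control mean. Points are samples, and the open triangle stands for the 3 Z1C2Z samples with 0 Rdh8 counts, which have no place on a log axis. Crabp2 is the highest gene in both groups, and Rdh8 and Aldh1a2 lie far below the others.

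The other genes of retinoid biology were taken by role from a list of 62 genes, of which 61 were in the table and 49 had enough counts for the test. With edgeR 3 of these 49 were higher and 3 lower at an adjusted p under 0.05, together 12.2%, against 8.13% of all genes tested. Their median log2 fold change was 0.05. Of the 16 among them that oxidise retinol or reduce retinal, 13 were above 0 and 3 below, unlike Rdh8 and Rdh10, which were both below 0. The deposited KEGG annotation put 79 genes in retinol metabolism, 6 of them members (Rdh8, Rdh10, the Aldh1a genes and Cyp26b1). Of the other 73, 35 were tested, 2 were higher (Adh7 and Cyp2s1, both also in the list by role) and 0 lower in edgeR. The median of these 35 was 0.21, and 27 of them were above 0, as were 7733 of all 15147 tested genes. With library totals alone as the scaling, 30 of the 35 were above 0. The share of the 35 that passed was 5.71%, below the 8.13% of all genes.

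Adh7, an alcohol dehydrogenase that oxidises retinol in epithelia, rose from 32.3 ± 8.96 to 59.4 ± 12.6 CPM (SD, n = 4), with a change of 0.88 ± 0.21 on the log2 scale (SE, adjusted p = 0.0411 in edgeR). Its highest control sample, control-1 at 44.4 CPM, lay just below the lowest Z1C2Z sample at 44.9 CPM. Cyp2s1, a cytochrome P450 of epithelia that can oxidise retinoic acid, rose from 10.3 ± 0.996 to 18.4 ± 2.46 CPM (0.83 ± 0.13, edgeR adjusted p = 0.0299). It was thus higher in the Z1C2Z samples while Cyp26b1, the other degrading enzyme tested, was lower on average. Rarg, the retinoic acid receptor most abundant in epidermis, rose from 77.3 ± 2.52 to 103 ± 5.96 CPM (0.41 ± 0.08, edgeR adjusted p = 0.0303). All 3 genes were higher in 4 of 4 Z1C2Z samples than in any control sample. Of the 49 tested genes of the list by role, 4 were higher without overlap, as were 8.45% of all genes.

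Among the genes that were lower, Cyp1b1 can oxidise retinol and retinal outside the main pathway. It fell from 159 ± 14.2 to 119 ± 6.76 CPM (SD, n = 4), with a change of -0.42 ± 0.09 on the log2 scale (SE, adjusted p = 0.0348 in edgeR). Tgm2, a transglutaminase whose gene is a classical target of retinoic acid, fell from 103 ± 16.2 to 54.4 ± 12.6 CPM (-0.93 ± 0.17, edgeR adjusted p = 0.0303). Hbegf, a ligand of the EGF receptor that retinoic acid induces in epidermis, fell from 51.6 ± 24.4 to 19.5 ± 6.51 CPM (-1.41 ± 0.35, edgeR adjusted p = 0.0449). All 3 were lower in 4 of 4 Z1C2Z samples than in any control sample. Of the 49 tested genes of the list by role, 4 were lower without overlap, as were 8.82% of all genes. Cyp1b1 missed the threshold with library totals alone as the scaling (adjusted p = 0.0559).

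The calls for these 6 genes rested on the full set of samples. When control-5 was left out edgeR passed 0 genes of the whole table (3223 at an unadjusted p under 0.05), as it did without Z1C2Z-1 (4208), without Z1C2Z-2 (3137) and without Z1C2Z-4 (3100). The log2 fold changes kept their sign in every fit that left out 1 sample, ranging from 0.75 to 1.07 for Adh7, 0.75 to 0.89 for Cyp2s1, 0.39 to 0.45 for Rarg, -0.48 to -0.38 for Cyp1b1, -1.08 to -0.81 for Tgm2 and -1.59 to -1.08 for Hbegf. Without control-2, Cyp2s1 alone of the 6 passed (adjusted p = 0.0478). Adh7 also missed the threshold without control-3 (adjusted p = 0.0614) and Hbegf without control-1 (adjusted p = 0.0618).

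**Figure D3:**
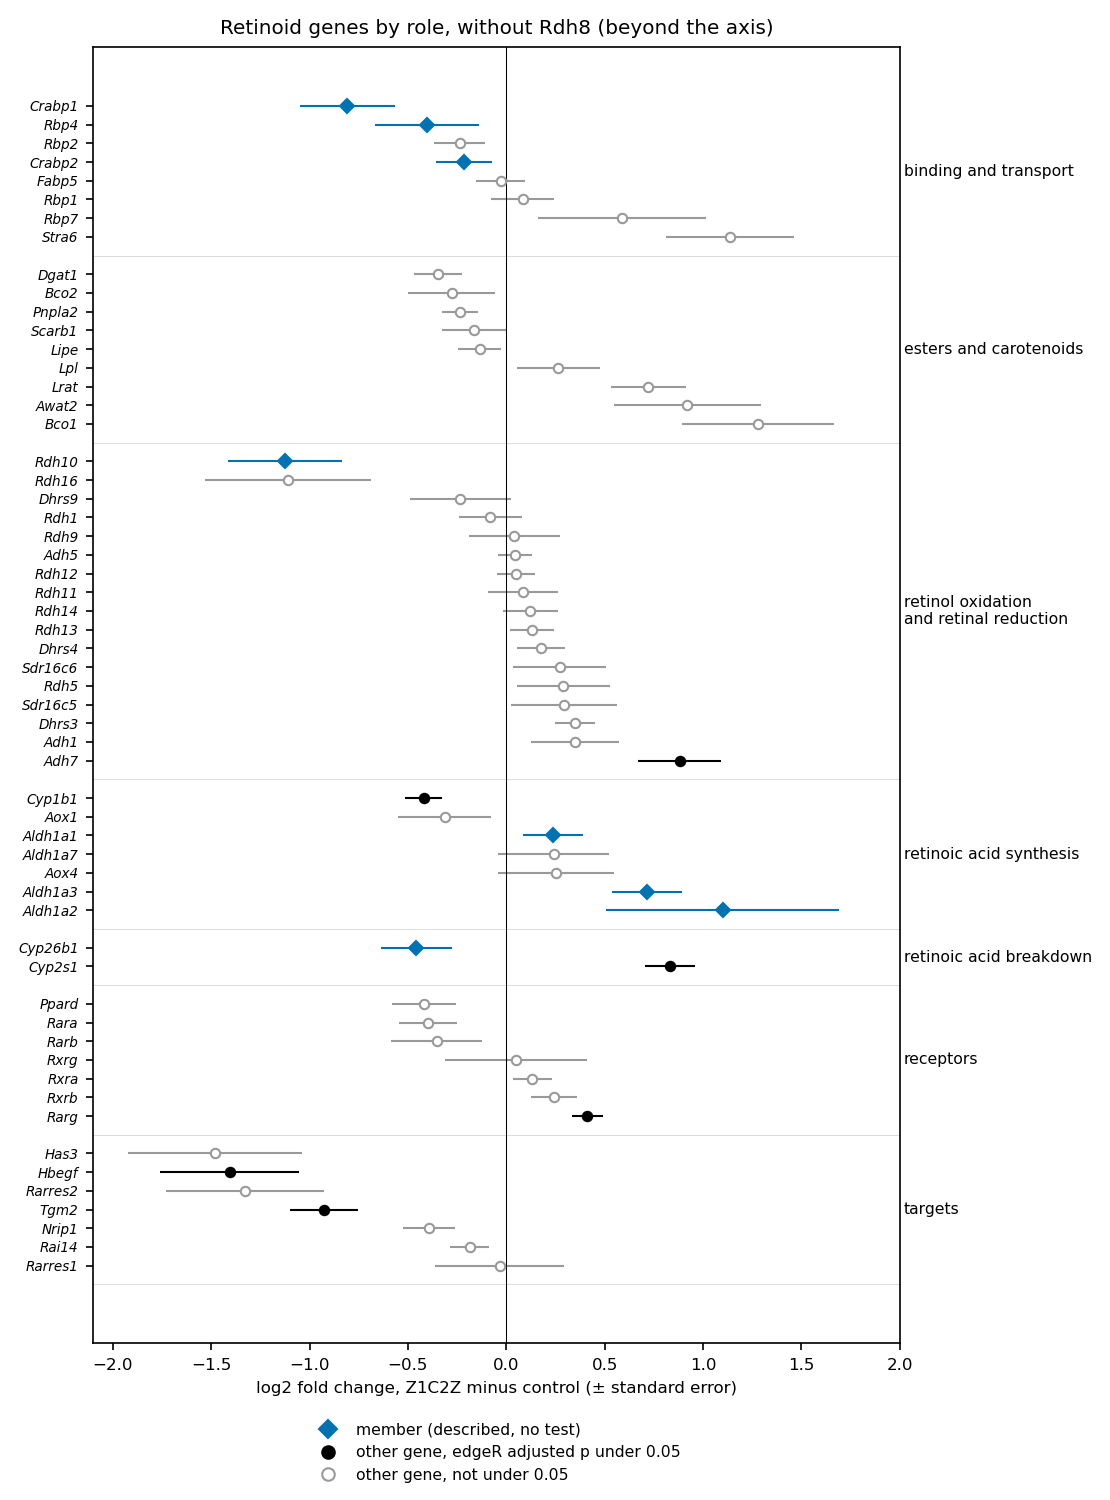
Log2 fold change of Z1C2Z against control with its standard error, for the tested retinoid genes grouped by role. Blue diamonds are members, which are described without a test, filled circles are other genes with an edgeR adjusted p under 0.05, and open circles are the rest. Rdh8, at -6.04, is left off the axis. Of the genes that are no members, 3 (Cyp1b1, Tgm2 and Hbegf) pass the test on the left of 0 and 3 (Adh7, Cyp2s1 and Rarg) on the right.

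Of the other genes that did not pass edgeR's test on the full set of samples, the 2 most abundant of each role follow. Not passing was thus a condition of their choice, and Cyp1b1, which passed, was more abundant than both aldehyde oxidases named below. Among binding proteins, Fabp5, which carries retinoic acid to the receptor Ppard in keratinocytes, was at -0.03 in the log2 fit (adjusted p = 0.899 in edgeR), and Rbp2 was at -0.24 (adjusted p = 0.268). Among enzymes of esters and carotenoids, Lpl was at 0.26 (adjusted p = 0.445) and Pnpla2 at -0.24 (adjusted p = 0.125). Among the dehydrogenases, Sdr16c6 was at 0.27 (adjusted p = 0.480) and Rdh11 at 0.08 (adjusted p = 0.788). The 2 aldehyde oxidases gave -0.31 for Aox1 (adjusted p = 0.419) and 0.25 for Aox4 (adjusted p = 0.606). Of the receptors, Rxra was at 0.13 (adjusted p = 0.420) and Ppard at -0.42 (adjusted p = 0.131). Of the targets, Rarres1 was at -0.03 (adjusted p = 0.956), while Rarres2, the precursor of chemerin, was at -1.33 (adjusted p = 0.0716) with control-5 far above the rest. Its fold change was -0.75 without control-5, and it passed without control-3 (adjusted p = 0.0446) and with DESeq2 on all samples (adjusted p = 0.0040). Cyp2b10 at -0.05 (adjusted p = 0.920) and Cyp2b19 at 0.54 (adjusted p = 0.122) were the most abundant KEGG genes outside the list by role.

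A further 4 genes that lay close to the threshold were chosen after their values were seen. Lrat, which makes retinyl esters for storage, was at 27.2 ± 6.86 CPM in the control group and 44.9 ± 8.46 CPM in the Z1C2Z group (SD, n = 4), which is 0.72 ± 0.19 in log2 terms (SE, adjusted p = 0.0502 in edgeR). Stra6, the membrane receptor that takes up retinol from Rbp4, was at 1.14 ± 0.33 (adjusted p = 0.0616), and Dhrs3 at 0.35 ± 0.10 (adjusted p = 0.0625) without overlap between groups. Has3, a hyaluronan synthase that retinoic acid induces in keratinocytes, was at -1.48 ± 0.44 (adjusted p = 0.0692). None of the 4 passed edgeR's test on the full set of samples. All 4 passed with DESeq2 (adjusted p = 0.0060 for Lrat, 0.0058 for Stra6, 0.0292 for Dhrs3 and 0.0035 for Has3). DESeq2 passed 2743 genes of the whole table, where edgeR passed 1231. Since the 4 were picked for lying close to edgeR's threshold, nothing is read from this.

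**Figure D4:**
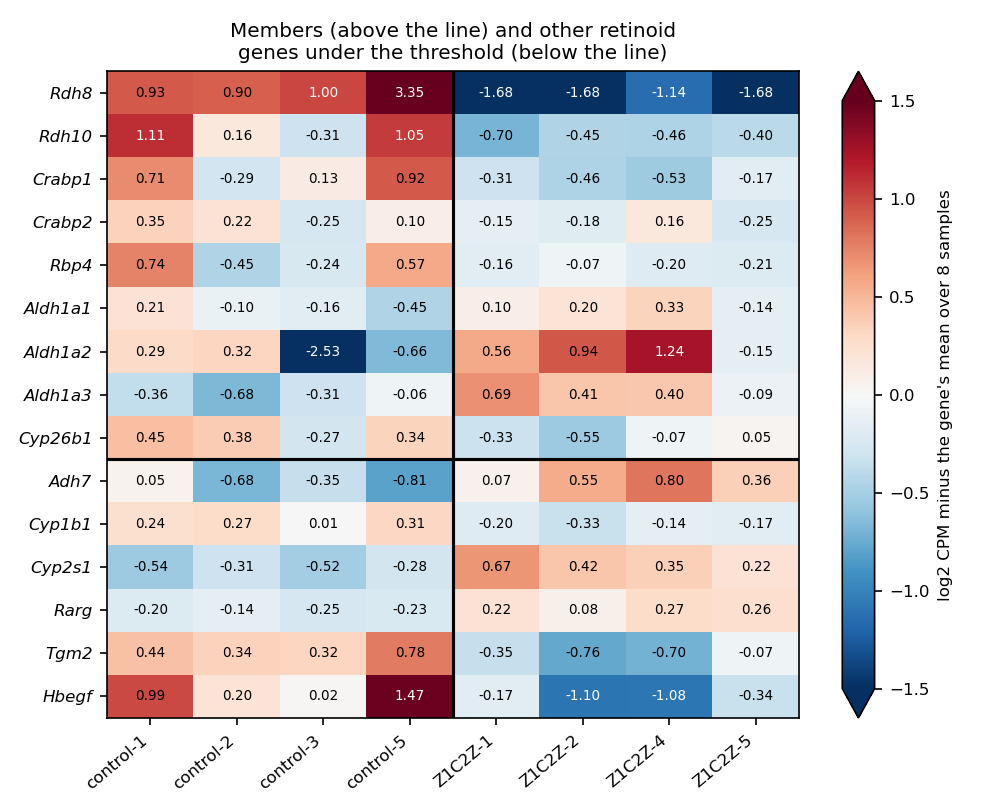
Log2 CPM of each gene in each sample after subtracting the gene's mean over the 8 samples, on a colour scale that ends at 1.5 in both directions. The 9 members are above the line and the 6 other retinoid genes that passed the test are below it. Control-1 and control-5 are the darkest red for Rdh10, Crabp1, Rbp4 and Hbegf, and of the 6 genes below the line all but Adh7 have opposite signs in the groups.

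For each member the 3 genes with the most similar pattern over the 8 samples were found by the root mean square (RMS) difference of centred log2 CPM, where 0 would be the same pattern. Rdh8 was followed by Tnfaip6 (0.545), a hyaluronan-binding protein made in inflammation, Il1rl1 (0.618), the receptor of IL33, and Tnfsf11 (0.725), the ligand RANKL, against an RMS of 1.72 of Rdh8 around its own mean. Tnfaip6 was far more abundant, with mean CPM of 311 and 39.2 in the control and Z1C2Z groups. For Rdh10, with an RMS of 0.665 around its mean, they were Rasd1 (0.207), Uap1 (0.210), which makes the sugar precursor of hyaluronan, and Ramp3 (0.217). For Crabp1 (RMS 0.510) they were Bhlhe40 (0.114), a transcriptional repressor, Hs3st1 (0.122), a heparan sulfate sulfotransferase, and Csrnp1 (0.155).

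The remaining members had weaker patterns or other partners. Rbp4 (RMS 0.395 around its mean) was closest to Sdc4 (0.110), a cell surface heparan sulfate proteoglycan, Acyp2 (0.128) and Ccdc71l (0.132), and Crabp2 (0.219) to Shq1 (0.104), Tma16 (0.110) and Asb2 (0.112). Aldh1a3 (0.433) was closest to Acrbp (0.118), Angptl6 (0.149) and Otop3 (0.181), and Aldh1a1 (0.240) to Mmaa (0.0660), Car13 (0.0805) and Gtpbp10 (0.0854). Aldh1a2 (1.11) had no close partner, the nearest being Cnnm1 (0.462), Tmem28 (0.478) and Ear2 (0.498), and Cyp26b1 (0.345) was closest to Syt12 (0.129), Gcnt4 (0.131) and Hmgcll1 (0.138). Over so few samples such likeness is a description only, and for low counts the RMS also holds counting error.

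The cell types of the skin, checked by their markers, differed between groups and between the control samples. Keratinocyte markers summed to between 11426 and 13703 CPM in the control samples and between 12495 and 17647 CPM in the Z1C2Z samples, with 0 of 5 passing edgeR's test. Markers of hair shaft and matrix passed as higher in 10 of 10 cases. Their sums were 98.7 to 354 CPM in the control samples and 435 to 2453 CPM in the Z1C2Z samples. Inner root sheath markers passed as higher in 5 of 6 cases (602 to 3523 against 4334 to 14213 CPM), and all 6 had a log2 fold change above 0. Melanocyte markers passed as higher in 5 of 5 cases (117 to 209 against 268 to 612 CPM). Within the control group, hair shaft sums were lowest in control-5 (98.7 CPM) and control-1 (120 CPM), the samples with the most Rdh10, Crabp1 and Rbp4. In Z1C2Z-5, the treated sample with the least Aldh1a3, they were the lowest of that group (435 CPM). Other samples went the other way, as control-5 had the most Aldh1a3 of the control samples (50.5 CPM). Z1C2Z-1, with the most Aldh1a3 of all (84.7 CPM), had a hair shaft sum of 1036 CPM, below Z1C2Z-2 (2453 CPM) and Z1C2Z-4 (2277 CPM).

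Fibroblast markers ranged from 55901 to 79268 CPM in the control samples and from 43973 to 61358 CPM in the Z1C2Z samples, and 2 of 7 passed as lower. Sums of dermal papilla markers were 282, 126, 96.7 and 534 CPM in the control samples, and between 75.1 and 113 CPM in the Z1C2Z samples. Much of these sums was Inhba, which also responds to wounding, at 208 ± 201 CPM in the control and 27.7 ± 17.0 CPM in the Z1C2Z group (SD, n = 4). Inhba fell by 2.91 on the log2 scale (edgeR adjusted p = 0.0497), while Wif1 rose by 0.56 (adjusted p = 0.0341) and the other 6 of 8 did not pass. Log2 fold changes were above 0 for 6 of the 8 dermal papilla markers and below 0 for 2. Neutrophil markers summed to between 572 and 1497 CPM in the control samples and between 167 and 655 CPM in the Z1C2Z samples (0 of 5 tested passed), and those of macrophages to between 2256 and 2528 and between 1340 and 2277 CPM (0 of 6). Endothelial markers were at 276 to 768 and 227 to 448 CPM (0 of 5). Sebocyte markers were at 1173 to 1763 and 1277 to 2108 CPM (1 of 7 passed as higher). Skeletal muscle markers were at 2672 to 5413 and 2357 to 2654 CPM (1 of 7 passed as lower). Log2 fold changes were below 0 for every tested fibroblast, neutrophil, macrophage, endothelial and skeletal muscle marker. Of the sebocyte markers, 6 were above 0 and 1 below. No marker of any list was at 0 in every sample. The part of these cell types in the values of the retinoid genes was not tested.

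**Figure D5:**
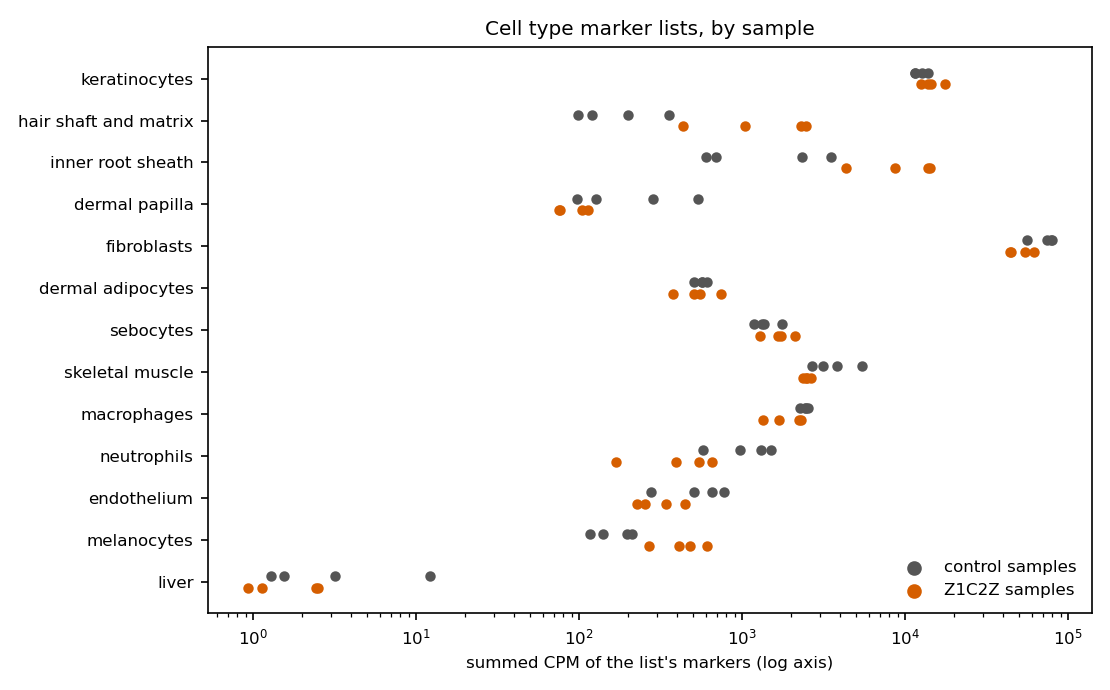
Summed CPM of each list of cell type markers in each sample, on a log axis. Points are samples, with control samples drawn above Z1C2Z samples. Hair shaft, inner root sheath and melanocyte sums are higher and skeletal muscle sums lower in the Z1C2Z samples without overlap between groups, while the liver sums stay at or under 12.2 CPM.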

How the data were processed

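RNA of mouse wound skin (4 control and 4 Z1C2Z samples) was depleted of ribosomal RNA and copied with random primers, with dUTP in the second strand. The deposited table gives raw, unnormalized read counts for 18540 genes, to which the authors added KEGG annotation, and totals lay between 28856790 and 38974888 counts per sample. The aligner, counting program, genome build, annotation and strand setting are not given in the sources used here, and they decide how reads of similar or overlapping genes were assigned. In GENCODE M21 no member shares exon bases with another gene. The methods name a TIANGEN kit for extraction and the labels name Trizol. Groups come from the sample titles. The titles do not name the agent, and Z1C2Z was inferred from sample names printed in the study, whose numbers match. All sample columns of the table were used.

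The analysis used edgeR 4.0.16 (limma 3.58.1, R 4.3.3): filterByExpr (15147 genes), TMM, the quasi-likelihood test without covariates and Benjamini-Hochberg adjustment over all tested genes. Genes passed at an adjusted p under 0.05, and were also counted at an absolute log2 fold change over 1. For the study's own calls the methods give either a 2-fold change or a p-value under 0.05, without saying whether it was adjusted, and name no tool. CPM used TMM library sizes, log2 CPM a prior count of 2, and standard errors came from the F statistic. At 10 counts a value has a large counting error. The smallest chi-square between any 2 libraries was 21.7 per degree of freedom, so none was a copy of another.

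The members, gene lists, markers and tests were chosen with earlier results of these data known. Named genes are the members, all other retinoid genes that passed, the 2 most abundant others of each role, the 3 nearest patterns per member, and genes said to be chosen after their values were seen. After the values were seen, 1 target gene and 1 marker list were taken out of these lists and are not reported here. The steps were tested on simulated data. Alternatives were DESeq2 1.42.0, RLE size factors, library totals alone, a block of the sample number, a minimum of 10 counts in all samples or no low-count filter, and leaving out each sample in turn.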

Additional observations from a re-analysis of the deposited data

Results flagged for a closer look

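2 values stood far from the other 3 samples of their group by Dixon's test, out of 66 groups of 4 samples tested for members and other named genes, where chance alone marks about 1 in 20. Both belong to Rdh8. Control-5 was at 1.77 CPM (63 counts), the nearest control sample was at 0.303 CPM, and the gap made up 0.983 of the range of the group. Z1C2Z-4 was at 0.0251 CPM from a single count, while the other Z1C2Z samples were at 0, so that value is 1 read in a group otherwise without any.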

How the results depend on the processing

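The log2 fold changes of the 9 members kept their direction under the settings listed above. They moved by less than the spread between samples in 122 values and by more in 2, both of Rdh8 (-7.75 with the sample number as a block and -7.56 without Z1C2Z-4). The spread was the larger of the group SDs of log2 CPM, a wide measure (1.34 for Aldh1a2 and 0.26 for Crabp2). Shifts within it could be large beside the fold change. With the sample number as a block, Aldh1a2 went from 1.10 to 0.50 and Crabp2 from -0.22 to -0.41. Requiring 10 counts in every sample left no value for Rdh8 and Aldh1a2. Over all genes, 648 higher and 583 lower genes became 1239 and 1504 with DESeq2 and 972 and 385 with library totals alone, which shifted the median log2 fold change by 0.0916 and the share of higher calls from 52.6% to 71.6% (44.3% with DESeq2 on the same genes). Past 2-fold, 326 and 189 became 491 and 345 with DESeq2. Of the other retinoid and KEGG genes, 3 higher and 3 lower became 7 and 6 with DESeq2, and 6 were higher with library totals alone. The cause was not tested. Sample numbers 1, 2 and 5 occur in both groups, and deviations of same-numbered samples correlated at -0.101, -0.0623 and 0.323. Differently numbered samples were not compared in this way, so these values cannot say whether the number pairs samples. With the number as a replicate block, 301 genes were higher and 253 lower, and of the other retinoid and KEGG genes 0 were higher and 4 lower (2546 of all genes had an unadjusted p under 0.05). Cyp1b1 did not pass under the block (adjusted p = 0.133), while Rarres2 (0.0323) and Has3 (0.0351) did. Fits without 1 of the samples gave 0 to 886 higher and 0 to 868 lower genes, 0 to 463 and 0 to 316 past 2-fold, and 0 to 6 and 0 to 5 of the other retinoid and KEGG genes. The counts of 0 came without control-5 or without any Z1C2Z sample but Z1C2Z-5, and, for lower retinoid genes, also without control-2. Fold changes near 0 changed sign with library totals alone for Fabp5 (0.065), Rarres1 (0.061) and Cyp2b10 (0.050). Without 1 sample, Fabp5 ranged from -0.11 to 0.035 (above 0 without control-5 or Z1C2Z-5), Rdh11 from -0.027 to 0.25 (below 0 without control-2), Rarres1 from -0.24 to 0.34 (above 0 without control-1, control-5 or Z1C2Z-1) and Cyp2b10 from -0.24 to 0.13 (above 0 without control-1, control-5 or Z1C2Z-2).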
